A study of Homo sapiens with 18 samples.

Results

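The HOX genes of the 4 human clusters and the antisense RNAs transcribed among them were followed in cells and extracellular vesicles (EVs) of HEK293T, an established human embryonic kidney line. Members were taken by symbol from GENCODE 29: protein-coding genes named HOXA, HOXB, HOXC or HOXD with a number, genes named as antisense RNAs of these clusters, and the long noncoding RNAs HOTAIR and HOTTIP. The rule gave 54 of 57865 genes, of which 39 were coding and 15 were antisense or long noncoding. The groups were EVs of ATG12-/- cells (clone D9), EVs of ATG7-/- cells (clone F2) and EVs of wild-type cells, and the ATG12-/-, ATG7-/- and wild-type cells themselves, with 3 libraries in each. All 6 groups had gone 24 h without serum. Each knockout was 1 clone, so the edit and the clone cannot be told apart, and the edits themselves are not described in the labels. Replicates were called biological in the labels, and whether they came from separate cultures is not given.

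HOX proteins are homeodomain transcription factors that give cells their position along the body axis. In each cluster the genes lie in the order of the body regions they pattern, from the anterior low-numbered genes to the posterior high-numbered ones, and equal numbers mark paralogues. Adult tissues and cell lines often keep the HOX profile of the region they came from. Antisense RNAs start between the coding genes, and some act on them: HOTAIR is known for binding Polycomb proteins and HOTTIP for bringing the WDR5 and KMT2A complex to the posterior HOXA genes.

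Values are TPM, a length-scaled share of each library, summed over the transcripts of a gene. TPM keep no sequencing depth, so the depth is unknown and no counting interval was possible. EV libraries had 13255 to 14716 genes at 1 TPM or more, and cell libraries 18464 to 20509. The HEK293-like marker list, of which all 10 genes were above 0 somewhere, summed to 439 to 671 TPM in EVs and 141 to 242 TPM in cells. Its neural and kidney lineage genes ranged widely, with NEFM at most 63.5 TPM in EVs and 14.5 TPM in cells, NEFL at most 45.0 TPM in EVs and 8.87 TPM in cells, and PAX2 at most 2.26 TPM in EVs and 3.44 TPM in cells. Blood markers summed to 0 to 30.0 TPM in EVs and 9.27 to 22.5 TPM in cells, with CD3E and HBB listed at 0 in every library. Fibroblast markers summed to 0.509 to 42.5 TPM in EVs and 8.11 to 26.2 TPM in cells. Endothelial markers summed to 0 to 0.761 TPM in EVs and 0.355 to 3.50 TPM in cells, and hepatocyte markers to 0 to 3.30 TPM in EVs and 0 to 1.58 TPM in cells, with VWF and ALB listed at 0 throughout. The part of these differences in the results was not tested. EV-associated genes summed to 127 to 224 TPM in EVs and 45.8 to 92.5 TPM in cells. ATG7 averaged 13.4 ± 2.2 TPM in ATG7-/- EVs and 15.9 ± 3.2 TPM in wild-type EVs, and 10.7 ± 2.5 TPM in ATG7-/- cells and 10.8 ± 2.5 TPM in wild-type cells (SD, n = 3 each). ATG12 averaged 0.286 ± 0.495 TPM in ATG12-/- EVs and 11 ± 11 TPM in wild-type EVs, and 7.02 ± 2.02 TPM in ATG12-/- cells and 10.4 ± 2.9 TPM in wild-type cells. An edit need not lower the RNA, and these values do not check the genotype labels in cells.

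The strand of each value is a limit for a set of sense and antisense partners. The library kit keeps strand, but the strand setting of the quantification is not given in the sources used here. AC006064.4, annotated opposite GAPDH, had 10883 to 13007 TPM in EVs and 2931 to 4305 TPM in cells, while GAPDH itself had 432 to 789 TPM in EVs and 56.1 to 136 TPM in cells. VIM-AS1 had 748 to 1940 TPM in EVs and 351 to 872 TPM in cells, against 39.7 to 103 TPM in EVs and 12.1 to 29.9 TPM in cells for VIM. Reads of a HOX gene and of its antisense partner therefore cannot be told apart here, and every name below stands for the annotation that received the value. Of the 15 antisense members, 12 had a leading transcript with some bases opposite an exon of another gene, and 3 had none.

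HOXB-AS4, the member on which the genotype comparisons turn, is an antisense RNA of the HOXB cluster at chr17:48628675-48634932 (GRCh38, GENCODE 29, plus strand). It lies beyond HOXB9 and has 2 annotated transcripts that start apart and share the start of their second exon. HOXB-AS4-201 is 214 nt long, with its first exon at chr17:48629549-48629651 and its second at chr17:48634551-48634661, and HOXB-AS4-202 is 566 nt long. No base of either lies opposite an annotated exon, but HOXB7-203 on the minus strand spans part of both. The strand limit above applies to HOXB-AS4 too. The spliced HOXB-AS4-201 is shown because it carried most of the HOXB-AS4 value, with the second exon, present also in HOXB-AS4-202, in capitals:
HOXB-AS4-201: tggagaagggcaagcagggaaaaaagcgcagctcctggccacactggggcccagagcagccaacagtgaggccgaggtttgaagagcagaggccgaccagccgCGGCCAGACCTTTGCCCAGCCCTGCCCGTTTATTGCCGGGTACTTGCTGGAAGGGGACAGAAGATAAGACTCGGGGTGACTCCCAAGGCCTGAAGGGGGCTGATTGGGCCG
RefSeq (GRCh38.p14) gives HOXB-AS4 a pair of start windows, each from 250 bases before to 50 bases after a start, at chr17:48628448-48628747 and chr17:48629271-48629570 on the plus strand. They are printed because the 2 transcripts start there, with motif matches in capitals:
HOXB-AS4 start window 1: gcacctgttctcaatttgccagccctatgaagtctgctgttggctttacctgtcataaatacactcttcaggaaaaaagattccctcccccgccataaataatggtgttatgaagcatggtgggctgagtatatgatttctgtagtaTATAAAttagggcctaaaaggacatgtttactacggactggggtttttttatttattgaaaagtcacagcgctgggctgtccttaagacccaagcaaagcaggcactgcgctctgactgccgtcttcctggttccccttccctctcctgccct
HOXB-AS4 start window 2: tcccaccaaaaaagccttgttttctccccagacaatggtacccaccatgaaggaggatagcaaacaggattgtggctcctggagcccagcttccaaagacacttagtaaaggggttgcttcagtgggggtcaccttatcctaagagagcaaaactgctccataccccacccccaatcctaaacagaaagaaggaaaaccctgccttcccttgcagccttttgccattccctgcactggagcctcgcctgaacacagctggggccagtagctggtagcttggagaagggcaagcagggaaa
Both strands were searched for TATAAA (the TATA box), TGATTNAT (a composite HOX site) and GGGCGG (the GC box). TATAAA occurred 1 time in the first window and 0 times in the second, and the other 2 motifs occurred in neither, so no matches overlapped. The TATAAA match lies at the middle of its window, well before the start. Whether it acts as a TATA box was not tested. TATAAA was in 11.5%, TGATTNAT in 2.82% and GGGCGG in 45.0% of 35116 windows of the same length. RefSeq windows matched 29 of the 54 members by symbol.

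**Figure D1:**
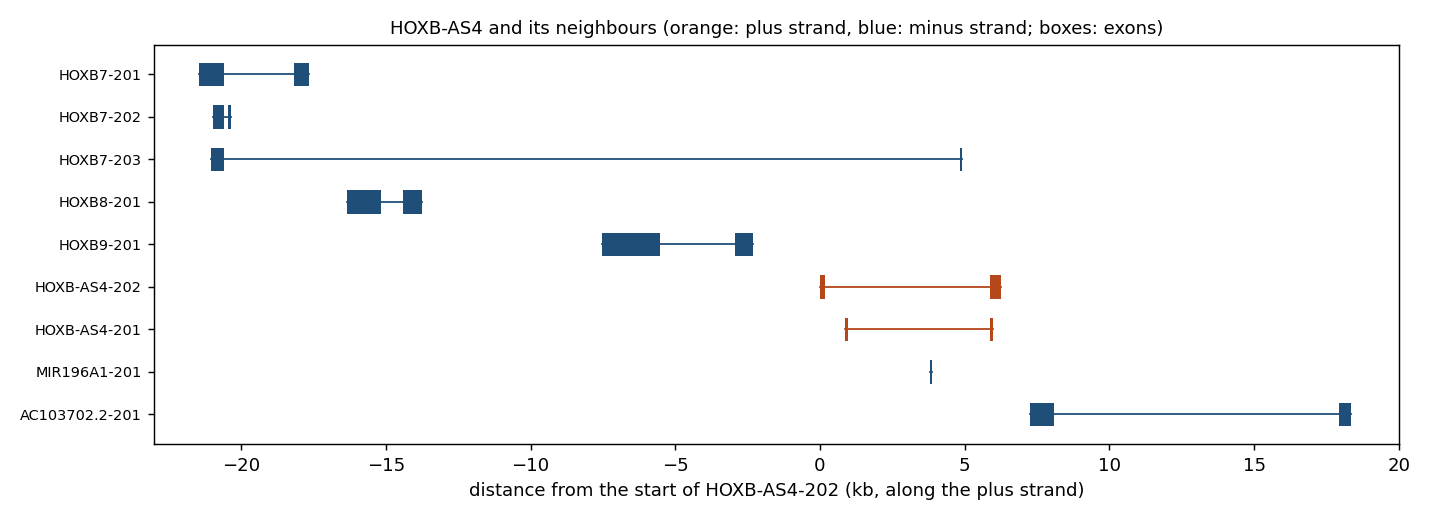
Annotated transcripts around HOXB-AS4, drawn along the plus strand with the distance in kb from the start of HOXB-AS4-202 on the x axis and 1 transcript per row. HOXB9 lies on the minus strand with its own start 2.3 kb before that of HOXB-AS4-202. The microRNA gene MIR196A1 lies within the HOXB-AS4 intron at 3.8 kb on the minus strand, and HOXB7-203 reaches across to 4.9 kb.

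In cells the 4 clusters were on, with more signal on the antisense annotations than on the coding ones. In wild-type cells 25 of the 39 coding genes and all 15 antisense genes averaged at least 1 TPM, and 3 coding and 9 antisense genes averaged at least 10 TPM. Over all libraries 20 of the 54 members were above 0 in every one. HOXB1, a hindbrain gene of the HOXB cluster, was listed at 0 in all 18 libraries. HOXC12, HOXD12 and HOXD1 were at or near 0, with no library above 0.791 TPM.

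Summed over the 39 coding members, EVs held 192 to 287 TPM and cells 173 to 248 TPM. Summed over the 15 antisense members, EVs held 258 to 615 TPM and cells 555 to 909 TPM. The antisense sum was 1.23 to 2.40 times the coding sum in EVs (median 1.78) and 2.70 to 4.44 times in cells (median 3.43), and the 2 ranges did not overlap. By cluster the median ratio was 2.47 in EVs and 5.28 in cells for HOXA, 2.57 in EVs and 6.49 in cells for HOXB, 0.592 in EVs and 4.63 in cells for HOXC, and 0.102 in EVs and 0.236 in cells for HOXD. HOXD, which has 1 antisense member in the set, was the cluster whose coding sum stood above its antisense sum in every library. This depends on the symbol rule, which leaves out HAGLR, a noncoding RNA beside HOXD1. In some EV libraries HAGLR alone was above the HOXD coding sum.

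**Figure D2:**
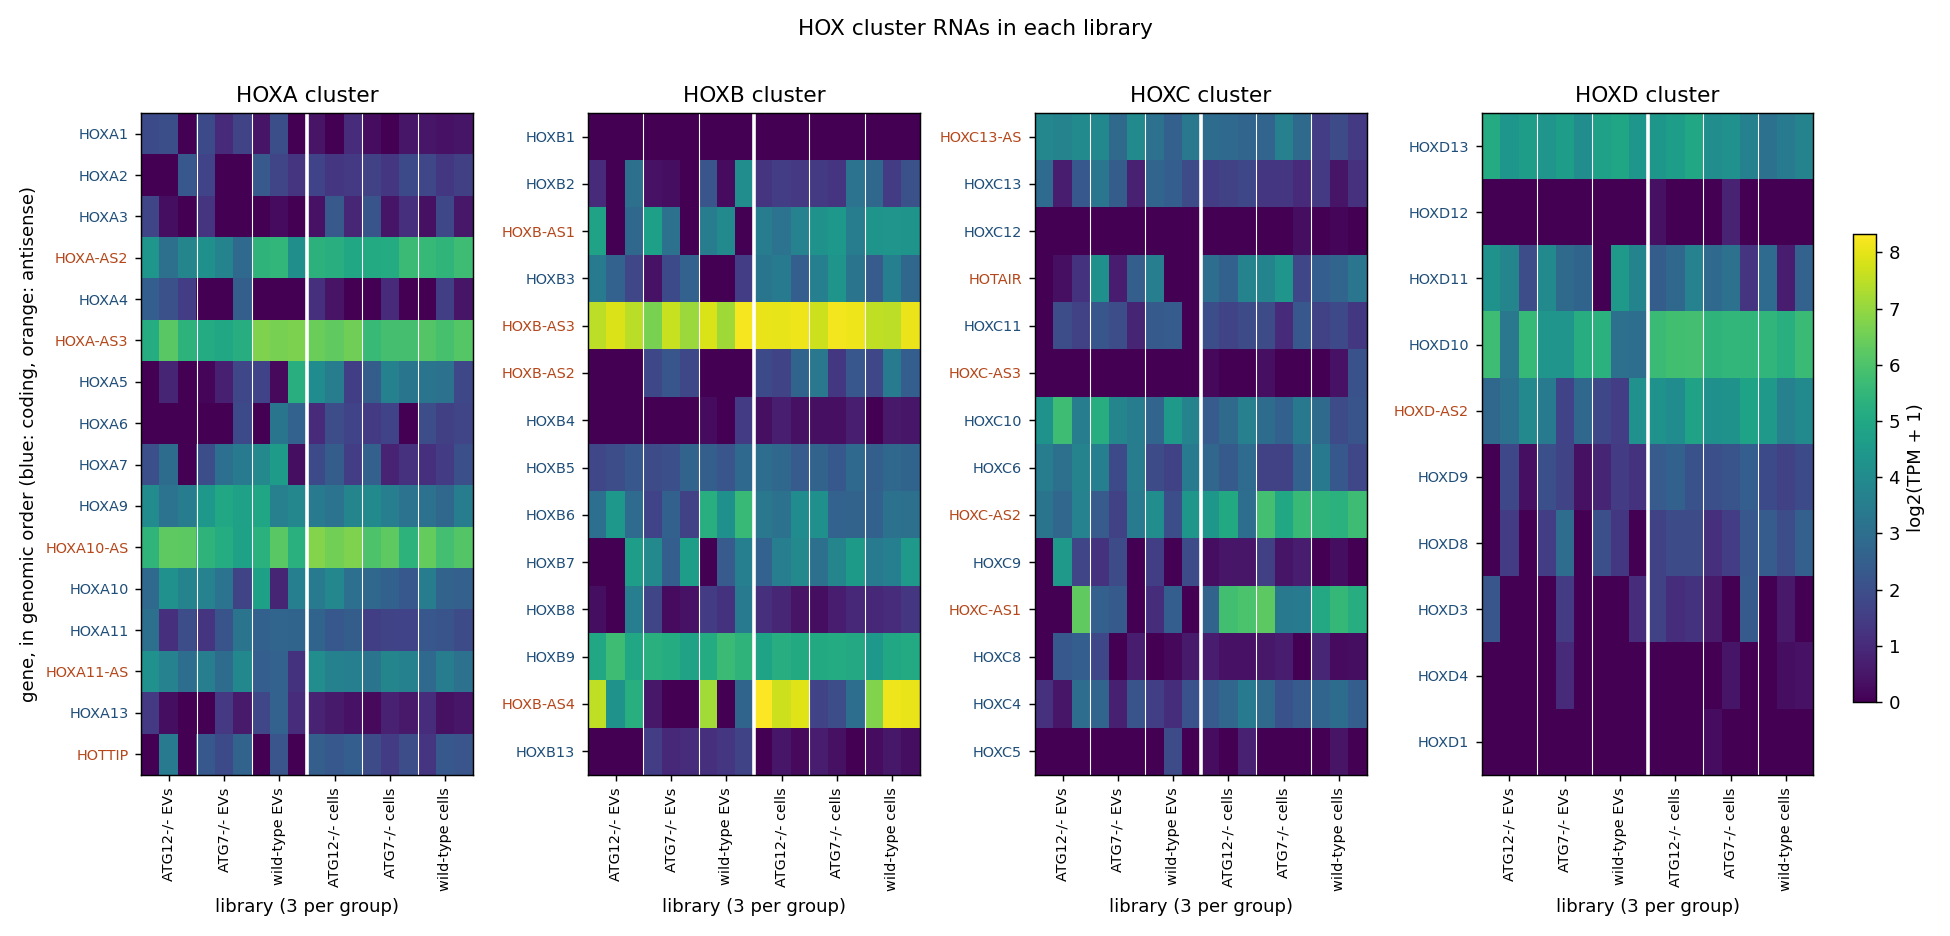
Level of each of the 54 members in each library as log2(TPM + 1), with genes in genomic order down each cluster panel and the 18 libraries across, EVs left of cells. HOXB-AS3 is the brightest row, at 99.9 to 298 TPM in EVs and 179 to 289 TPM in cells, and HOXB-AS4 is dark in the ATG7-/- columns.

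By median over libraries, most of the coding signal sat at the posterior end. Paralogue groups 9 to 13, with 16 of the 39 coding members, held 46.5% to 80.3% of the coding TPM in EVs (median 70.5%) and 58.6% to 71.1% in cells (median 65.9%). The leading coding gene of HOXD was HOXD10, a posterior gene of limb and lumbar spinal cord, with 7.10, 19.4 and 52.0 TPM as the lowest, median and highest of 9 EV libraries and 36.9, 44.9 and 55.8 TPM in 9 cell libraries. HOXB9, which patterns the thoracic skeleton in mice, led HOXB with 27.1, 34.5 and 52.4 TPM in EVs and 20.8, 32.3 and 35.4 TPM in cells, all of it on the protein-coding HOXB9-201. HOXA9, known from blood progenitors and leukaemia, led HOXA with 7.96, 15.2 and 30.6 TPM in EVs and 5.88, 9.84 and 15 TPM in cells. HOXC10, a hindlimb-level gene, led HOXC with 5.64, 12.9 and 52.7 TPM in EVs and 2.71, 6.35 and 11.4 TPM in cells. The EV and cell ranges of these 4 genes overlapped.

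Only part of the coding values rested on transcripts annotated as protein-coding: 63.4% of the coding members' summed TPM in EVs and 59.7% in cells. The leading transcript was of that type in 27 of the 38 coding members above 0. HOXD13-201, the one transcript behind HOXD13, is protein-coding, whereas most of HOXD10 in cells lay on HOXD10-203, a 906-nt processed transcript with 29.9 to 42.6 TPM there.

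By mean over the 18 libraries the highest antisense members were HOXB-AS3 (median 181 TPM in EVs and 262 TPM in cells), HOXB-AS4 (5.38 TPM in EVs and 206 TPM in cells), HOXA-AS3 (41.2 TPM in EVs and 67.4 TPM in cells) and HOXA10-AS (41.6 TPM in EVs and 76.5 TPM in cells), with medians over 9 libraries. HOXB-AS3 is an RNA reported to encode a small peptide in human colon cancer cells. HOXA-AS3 is annotated across the middle of HOXA, and the 621-nt HOXA-AS3-204 had 65.9% of its bases opposite exons of other genes. HOXA10-AS overlaps HOXA9 and HOXA10, and the 1161-nt HOXA10-AS-202 had 87.6% of its bases opposite exons. In HOXC the highest antisense mean was that of HOXC13-AS in EVs (10.8 TPM, against 10.2 TPM for HOXC-AS1 and 9.02 TPM for HOXC-AS2) and that of HOXC-AS1 in cells (36.5 TPM, against 36.3 TPM for HOXC-AS2). HOXD-AS2 was the antisense member of HOXD.

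In ATG7-/- cells HOXB-AS4 was almost gone, and it was the 1 member of 41 tested that passed against wild-type cells, where 0.2% of all genes tested passed and 0.116% passed as lower. It had 2.27, 2.96 and 7.06 TPM in ATG7-/- cells, against 108, 277 and 264 TPM in wild-type cells. ATG12-/- cells had 320, 206 and 241 TPM, within or above the wild-type range. The ATG7-/- libraries stood apart from both other groups with no overlap. The log2 fold change of ATG7-/- over wild-type cells was -5.34 (SE 0.47, adjusted p = 0.00589, limma on log2(TPM + 1) with Benjamini-Hochberg adjustment over all genes tested). The log2 fold change of ATG12-/- over ATG7-/- cells was 5.71 (SE 0.47, limma adjusted p = 0.00484), again for 1 of 41 members, against 0.138% of all genes, or 0.0623% as higher. Neither call was lost in any of 16 alternatives, but both came near the threshold. The highest limma adjusted p was 0.0498 for ATG7-/- against wild-type cells and 0.0458 for ATG12-/- against ATG7-/- cells. The size depended on the short transcript: without transcripts under 250 nt, an alternative chosen after seeing the data, the log2 fold change was -2.50 in ATG7-/- against wild-type cells (limma adjusted p = 0.0475) and 2.78 in ATG12-/- against ATG7-/- cells (limma adjusted p = 0.0458).

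Both HOXB-AS4 transcripts were low in the ATG7-/- clone. The printed HOXB-AS4-201 was listed at 0 in all 6 ATG7-/- libraries, EVs and cells, and had 290, 171 and 209 TPM in ATG12-/- cells and 78.9, 240 and 246 TPM in wild-type cells. HOXB-AS4-202 had 2.27, 2.96 and 7.06 TPM in ATG7-/- cells, 30.6, 34.9 and 31.3 TPM in ATG12-/- cells and 28.6, 37.0 and 17.9 TPM in wild-type cells. All of the HOXB-AS4 value left in ATG7-/- cells therefore lay on HOXB-AS4-202. The antisense sum over the 15 members was 869 ± 50.5 TPM in ATG12-/- cells and 566 ± 16.4 TPM in ATG7-/- cells, against 751 ± 127 TPM in wild-type cells (SD, n = 3 each). Without HOXB-AS4 it was 614 ± 29.3 TPM in ATG12-/- cells and 562 ± 17.8 TPM in ATG7-/- cells, against 535 ± 64.8 TPM in wild-type cells. An estimate of 0 for a short transcript can be a failed one, which these values cannot show.

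**Figure D3:**
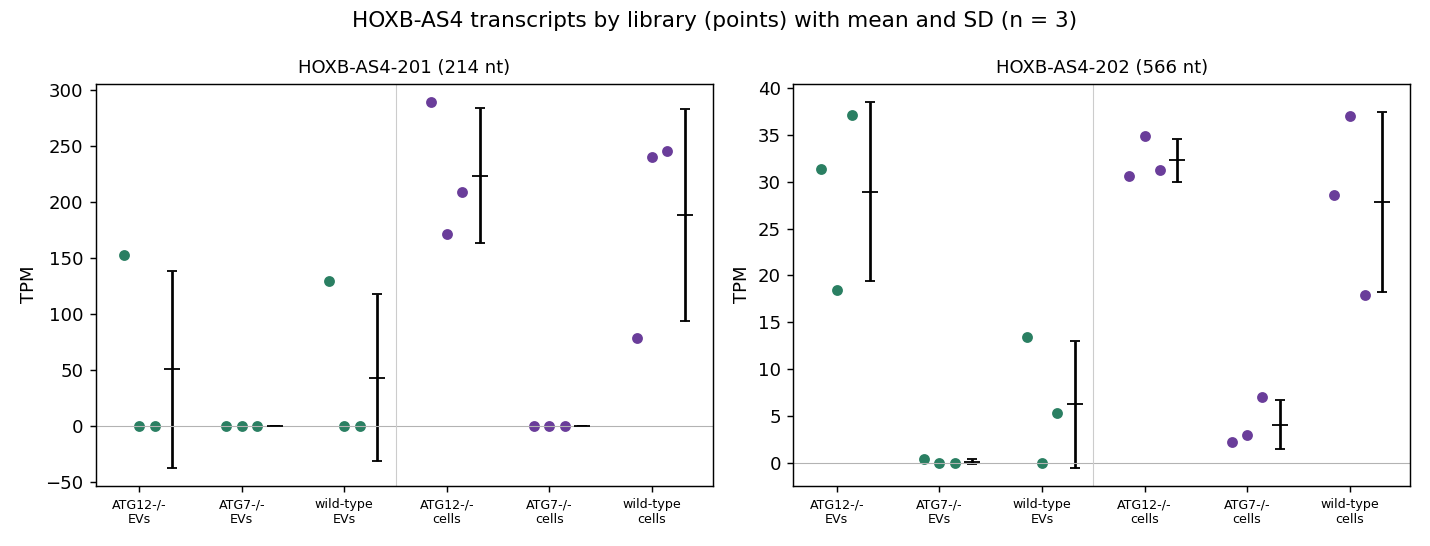
TPM of the 2 HOXB-AS4 transcripts in each library (points, EVs green and cells purple) with mean and SD of 3 libraries. HOXB-AS4-201 is at 0 in all ATG7-/- libraries and at 78.9 to 290 TPM in ATG12-/- and wild-type cells, and HOXB-AS4-202 is at 2.27 to 7.06 TPM in ATG7-/- cells and 17.9 to 37.0 TPM in the other cells.

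HOXB9, HOXB7 and HOXB-AS3, neighbours of HOXB-AS4, did not pass the test. HOXB9, on the minus strand with its own start 2.3 kb before HOXB-AS4, had 32.3, 33.5 and 31.7 TPM in ATG7-/- cells, against 20.8, 30.4 and 33.1 TPM in wild-type cells (log2 fold change 0.30, SE 0.23, limma adjusted p = 0.597). HOXB7, of which 1 transcript spans part of HOXB-AS4, had 7.42, 12.8 and 22.2 TPM in ATG7-/- cells, against 9.87, 11 and 21.3 TPM in wild-type cells (log2 fold change 0.03, SE 0.49, limma adjusted p = 0.987). HOXB-AS3, farther along the cluster, had 207, 289 and 277 TPM in ATG7-/- cells, against 185, 179 and 268 TPM in wild-type cells. MIR196A1, the microRNA gene within the intron, was listed at 0 in all 18 libraries and did not enter the test. The 3 neighbours' ranges overlapped between the 2 genotypes.

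In EVs HOXB-AS4 was uneven. It had 184, 18.4 and 37.1 TPM in ATG12-/- EVs, 0.463, 0 and 0 TPM in ATG7-/- EVs and 143, 0 and 5.38 TPM in wild-type EVs. ATG12-/- and ATG7-/- EVs did not overlap, and wild-type EVs overlapped both. None of these differences passed: the log2 fold change was 5.48 for ATG12-/- over ATG7-/- EVs (SE 1.57, limma adjusted p = 0.484) and -3.04 for ATG7-/- over wild-type EVs (SE 1.57, limma adjusted p = 0.706).

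The other members did not pass between genotypes in cells. Against wild-type cells, limma called 0 of 41 members in ATG12-/- cells, where 0.134% of all genes passed, and 7 of the 41 had an unadjusted p under 0.05, as did 15% of all genes. The groups did not overlap in deposited TPM for 15 of 41 members, or 36.6%, against 23.6% of all genes tested. For ATG7-/- against wild-type cells the figure was 5 of 41, against 19.9% of all genes, and for ATG12-/- against ATG7-/- cells 9 of 41, against 16.6%.

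HOXD13, the most posterior HOXD gene and a limb patterning factor, had 20.2, 24.3 and 30.8 TPM in ATG12-/- cells and 16.1, 17.6 and 11.6 TPM in ATG7-/- cells, against 7.53, 10.0 and 12.1 TPM in wild-type cells. ATG12-/- cells lay above wild-type cells without overlap, and ATG7-/- cells overlapped wild-type cells at the lower end. The log2 fold change of ATG12-/- over wild-type cells was 1.29 (SE 0.28, limma adjusted p = 0.129). HOXC13-AS, antisense at the hair and nail gene HOXC13, had 6.74, 6.22 and 5.58 TPM in ATG12-/- cells and 5.58, 11.3 and 6.44 TPM in ATG7-/- cells, against 1.85, 2.71 and 1.68 TPM in wild-type cells. Each of the 6 knockout libraries was above the 3 wild-type ones. The log2 fold change was 1.25 in ATG12-/- cells (SE 0.31, limma adjusted p = 0.159) and 1.52 in ATG7-/- cells (SE 0.31, limma adjusted p = 0.103), and both contrasts share the wild-type libraries. HOXA-AS3, the second smallest p between the 2 knockouts, had 87.0, 78.2 and 91.6 TPM in ATG12-/- cells and 49.1, 57.9 and 57.9 TPM in ATG7-/- cells (log2 fold change 0.59, SE 0.16, limma adjusted p = 0.278).

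Between genotypes in EVs limma called none of 45 members. Among all genes 0.105% passed in ATG12-/- against wild-type EVs, 0.141% in ATG7-/- against wild-type EVs and 0.0468% in ATG12-/- against ATG7-/- EVs, and 5, 3 and 3 members in that order had an unadjusted p under 0.05, where 7.94%, 7.41% and 6.02% of all genes did. Members without overlap numbered 6, 4 and 6 of 45, against 11.3%, 13.9% and 11.8% of all genes.

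HOXA-AS3, the antisense member of HOXA with the highest mean, had 34.4, 72.3 and 41.2 TPM in ATG12-/- EVs and 34.1, 31.1 and 35.2 TPM in ATG7-/- EVs, against 104, 97.6 and 103 TPM in wild-type EVs. Every knockout library was below every wild-type library. The log2 fold change was -1.02 for ATG12-/- (SE 0.38, limma adjusted p = 0.564) and -1.48 for ATG7-/- (SE 0.38, limma adjusted p = 0.302). HOXA-AS3-204, most of whose bases lie opposite other exons, had 2.12, 52.2 and 21.0 TPM in ATG12-/- EVs and 10.4, 9.86 and 9.29 TPM in ATG7-/- EVs, against 85.3, 80.5 and 77.1 TPM in wild-type EVs.

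HOXB6, a mid-cluster gene, had 7.15, 20.6 and 6.57 TPM in ATG12-/- EVs and 2.18, 5.07 and 2.10 TPM in ATG7-/- EVs, against 36.6, 17.2 and 48.6 TPM in wild-type EVs. ATG7-/- EVs lay below the other 2 groups, which overlapped (log2 fold change of ATG7-/- over wild type -2.95, SE 0.67, limma adjusted p = 0.205). HOXB-AS2, an antisense RNA within the span of HOXB3, had 2.46, 3.65 and 2.48 TPM in ATG7-/- EVs. It was listed at 0 in all ATG12-/- and all wild-type EVs (limma adjusted p = 0.14 for ATG7-/- against wild type and 0.213 for ATG12-/- against ATG7-/-). HOXB-AS2 entered the EV fit only through the ATG7-/- libraries, so its p and its lack of overlap there are no evidence of a difference. HOXB13, a prostate and tail-end gene, was listed at 0 in each ATG12-/- EV library, against 1.16, 1.52 and 2.25 TPM in wild-type EVs (limma adjusted p = 0.486). HOXA4, an anterior gene, had 4.63, 3.19 and 1.87 TPM in ATG12-/- EVs and was listed at 0 in the 3 wild-type EV libraries (limma adjusted p = 0.547). In ATG7-/- EVs it had 0, 0 and 4.71 TPM. Without the ATG12-/- libraries HOXA4 would not have entered the EV fit, so its p and its lack of overlap are no evidence of a difference either.

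**Figure D4:**
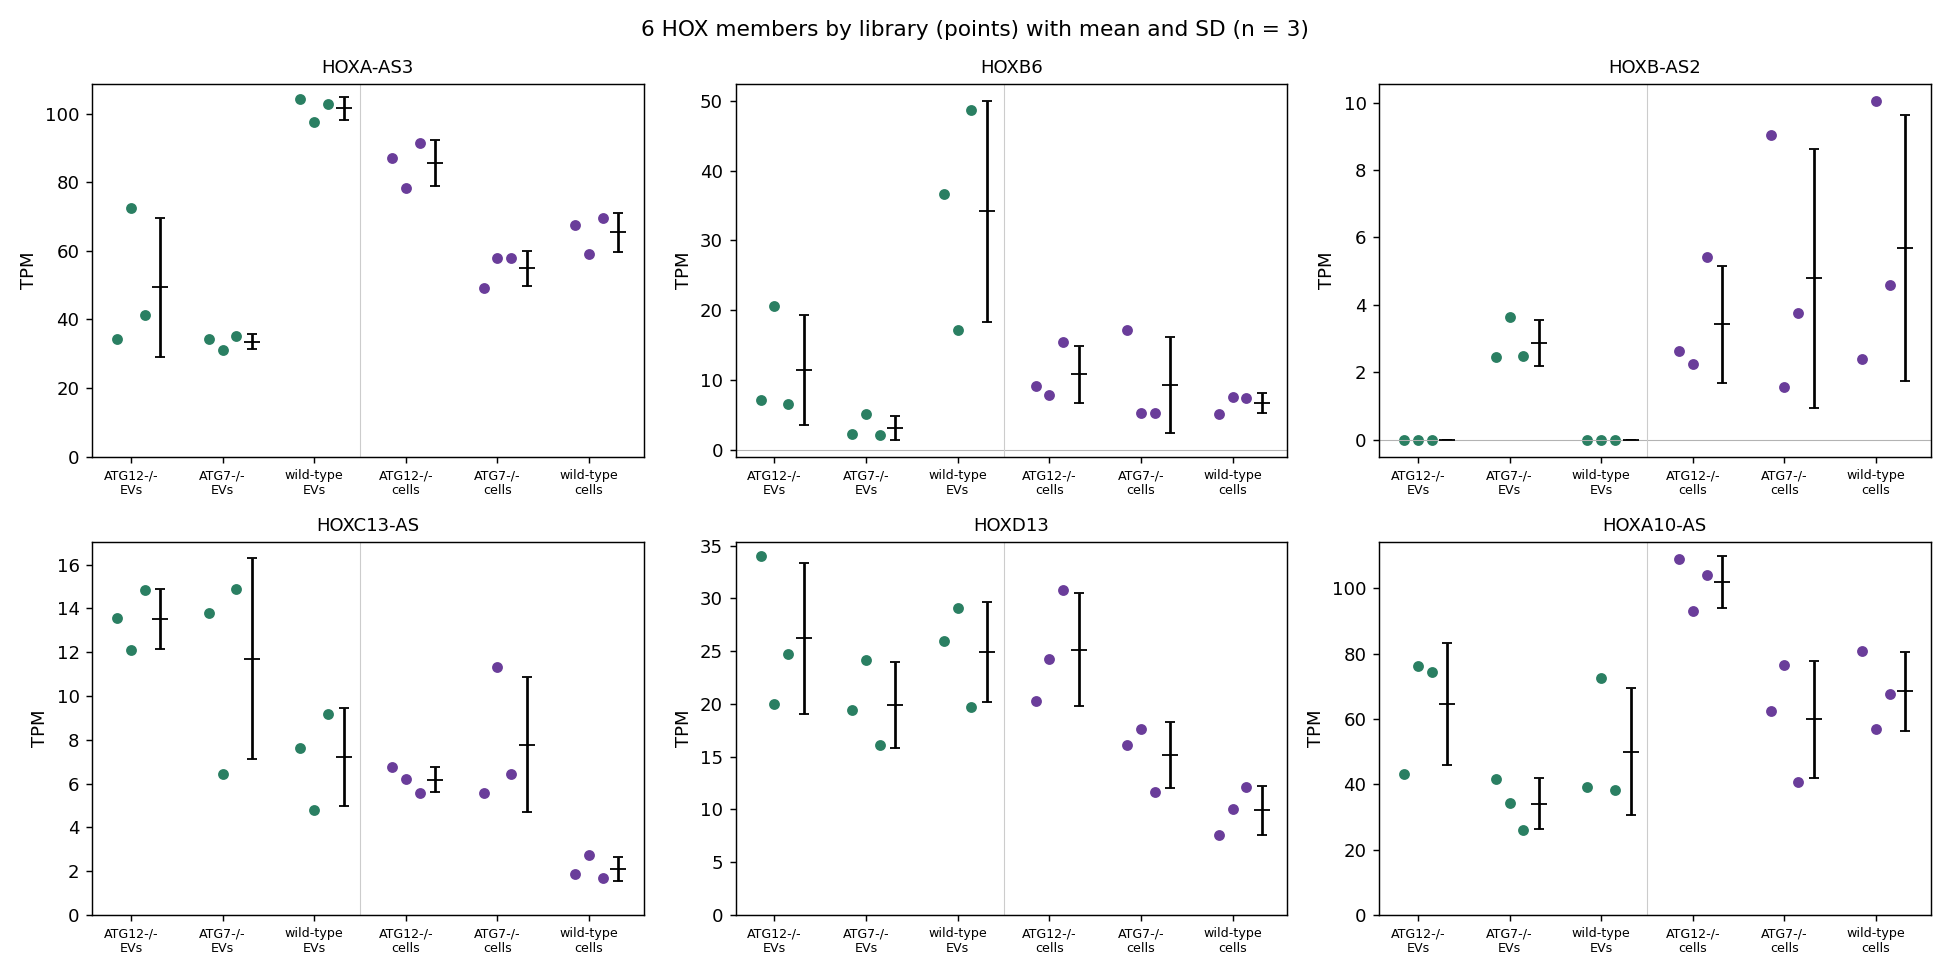
TPM of HOXA-AS3, HOXB6, HOXB-AS2, HOXC13-AS, HOXD13 and HOXA10-AS in each library (points, EVs green and cells purple) with mean and SD of 3 libraries. Wild-type EVs stand highest for HOXA-AS3 (97.6 to 104 TPM) and wild-type cells lowest for HOXC13-AS (1.68 to 2.71 TPM), and neither difference passed the test.

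EVs and cells differed for many members, about as often as for other genes. Averaged over the 3 genotypes, limma called 21 of 46 members, or 45.7%, against 44.1% of all 24647 genes tested. Of these, 3 were higher in EVs, where 7.66% of all genes were, and 18 were lower, where 36.4% were. TPM as deposited, without scaling between libraries, gave 5 higher and 13 lower. The median of all genes was itself -0.61 on the log2 scale, so a member near that value moved with the bulk of genes. In bulk RNA, fewer molecules in each vesicle and fewer vesicles with the RNA cannot be told apart. No member's 9 EV libraries were all above or all below its 9 cell libraries, which held for 5.58% of all genes.

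Coding and antisense members lay at different places in this comparison. The all-gene values pool every gene type, so whether the split is particular to HOX members was not tested. Of 14 antisense members tested, 1 was higher and 11 were lower in EVs, with a median log2 fold change of -1.57. Of 32 coding members tested, 2 were higher and 7 were lower, with a median of -0.01. The 2 kinds also differed in level, as 4 of 39 coding and 10 of 15 antisense members averaged at least 10 TPM in cells. The log2(TPM + 1) scale understates the change of low genes, and the part of level in the split was not tested. Tested against the median of all genes, an alternative chosen after seeing the data, 20 members passed, where 32.9% of all genes did, with 13 higher and 7 lower, against 18% and 15% of all genes: among coding members 12 were higher and 1 lower, and among antisense members 1 was higher and 6 lower. Members at low values in both compartments, 7 coding and 1 antisense, did not enter the fit.

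**Figure D5:**
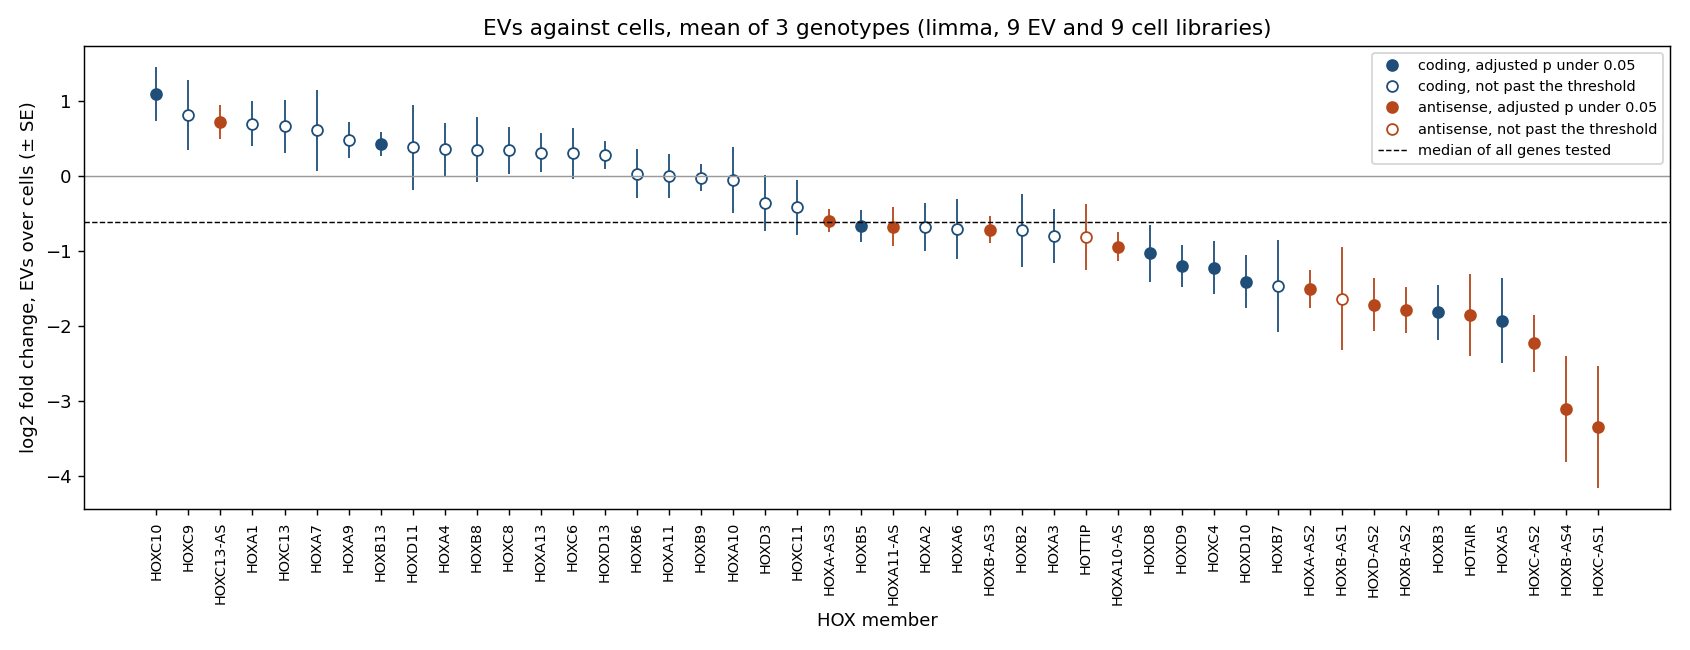
Log2 fold change of EVs over cells with its SE for the 46 members tested, averaged over 3 genotypes and sorted, with filled points for limma adjusted p under 0.05. The dashed line is the median of all genes tested, -0.61, and the antisense members (orange) gather at the low end while 1 of them, HOXC13-AS, is at 0.73.

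Antisense RNAs of HOXC and HOXB had the lowest EV values relative to cells. HOXC-AS1 had 0, 1.14 and 76.7 TPM as the lowest, median and highest of 9 EV libraries and 5.22, 35.8 and 73.3 TPM in 9 cell libraries (log2 fold change -3.35, SE 0.81, limma adjusted p = 0.00416). Its highest EV value came from 1 ATG12-/- library, above every cell library. HOXB-AS4 had 0, 5.38 and 184 TPM in EVs and 2.27, 206 and 320 TPM in cells (log2 fold change -3.11, SE 0.71, limma adjusted p = 0.00281). HOXC-AS2 had 2.03, 8.25 and 20.1 TPM in EVs and 7.02, 39.1 and 56.3 TPM in cells (log2 fold change -2.23, SE 0.38, limma adjusted p = 0.000313). HOTAIR had 0, 0.572 and 17 TPM in EVs and 2.40, 7.0 and 19.2 TPM in cells (log2 fold change -1.85, SE 0.55, limma adjusted p = 0.0135). All of these ranges overlapped.

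HOXB-AS2 (-1.79), HOXD-AS2 (-1.72) and HOXA-AS2 (-1.50) were also lower in EVs by log2 fold change. HOXA-AS2 had 6.12, 16.7 and 45.2 TPM in EVs and 29.8, 39.6 and 52.1 TPM in cells. HOXA10-AS (-0.94), HOXB-AS3 (-0.71), HOXA11-AS (-0.67) and HOXA-AS3 (-0.59) passed as lower but lay near the median of all genes. For HOXA-AS3 wild-type EVs (97.6 to 104 TPM) lay above wild-type cells (59.0 to 69.6 TPM) without overlap, with a fitted log2 fold change of 0.13 (limma adjusted p = 0.742), while both knockouts were lower in EVs. Relative to that median HOXC-AS1, HOXB-AS4, HOXC-AS2, HOXB-AS2, HOXD-AS2 and HOXA-AS2 stayed past the threshold as lower, HOTAIR did not pass (-1.24, limma adjusted p = 0.0942), and HOXA-AS3 turned to 0.017 (limma adjusted p = 0.944). HOXC13-AS was the antisense member that rose in EVs, with 4.81, 12.1 and 14.9 TPM in EVs and 1.68, 5.58 and 11.3 TPM in cells (log2 fold change 0.73, SE 0.22, limma adjusted p = 0.0167).

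Among coding genes HOXC10 rose in EVs (log2 fold change 1.10, SE 0.36, limma adjusted p = 0.0237), as did HOXB13 from low levels on average over the genotypes (0.43, limma adjusted p = 0.0342). In ATG12-/- HOXB13 was listed at 0 in all 3 EV libraries, against 0, 0.405 and 0.168 TPM in cells (-0.23, limma adjusted p = 0.612). HOXA5, a lung patterning gene in mice, had 0, 0.662 and 37.3 TPM in EVs and 1.91, 8.16 and 15.4 TPM in cells (log2 fold change -1.93, SE 0.57, limma adjusted p = 0.013). HOXB3, a hindbrain gene, had 0, 2.42 and 9.82 TPM in EVs and 4.22, 8.47 and 19.0 TPM in cells (log2 fold change -1.82, SE 0.36, limma adjusted p = 0.00117). HOXD10 (-1.41), HOXC4 (-1.22), HOXD9 (-1.20), HOXD8 (-1.03) and HOXB5 (-0.66) were the other coding members that fell in EVs by log2 fold change, and of the 7 lower ones HOXB3 also passed relative to the median of all genes. HOXD8 kept the call in 11 of 27 alternatives, HOXB13 in 17 of 27 and HOXA11-AS in 10 of 28, and leaving out single libraries was among those that ended it.

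HOXB9, HOXD13 and HOXA9 did not pass between EVs and cells but stood above the bulk of genes. Their log2 fold changes were -0.02 (SE 0.18), 0.29 (SE 0.19) and 0.49 (SE 0.24), with limma adjusted p of 0.947, 0.236 and 0.109 in that order. Relative to the median of all genes they were 0.59 (limma adjusted p = 0.0183), 0.89 (limma adjusted p = 0.00256) and 1.09 (limma adjusted p = 0.00286), each past the threshold as higher.

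Within a genotype fewer members passed: 4 of 46 in ATG12-/-, against 11.2% of all genes, 5 of 46 in ATG7-/-, against 11.4%, and 11 of 46 in wild type, against 24.7%. All 4 and all 5 were lower in EVs, where 8.9% and 8.69% of all genes were, and wild type had 2 higher and 9 lower, where 4.03% and 20.7% were. TPM as deposited gave 4 higher and 4 lower in wild type, and relative to the median of all genes wild type had 7 higher and 3 lower, ATG7-/- 2 higher and 1 lower and ATG12-/- 1 higher and 0 lower. EV and cell libraries did not overlap for 16 of 46 members in ATG12-/-, against 30.7% of all genes, for 17 in ATG7-/-, against 31.1%, and for 19 in wild type, against 35.5%. HOXB-AS2 and HOXB3 had the smallest p in wild type (log2 fold changes -2.77 and -2.68, limma adjusted p = 0.00204 and 0.00704). HOXC-AS2 and HOXA-AS2 had the smallest p in ATG7-/- (log2 fold changes -3.18 and -1.92, limma adjusted p = 0.00629 and 0.0127). HOXB-AS2 and HOXA-AS3 had the smallest p in ATG12-/- (log2 fold changes -2.05 and -0.99, limma adjusted p = 0.0224 and 0.0291). HOXB6 passed as higher in wild-type EVs over their cells (log2 fold change 1.63, limma adjusted p = 0.047), a call kept in 7 of 16 alternatives. Among the pairs with the smallest p, the calls were kept in all 16 alternatives for HOXB-AS2 and HOXB3 in wild type and HOXC-AS2 in ATG7-/-, in 14 for HOXA-AS2 in ATG7-/-, and in 10 and 9 for HOXB-AS2 and HOXA-AS3 in ATG12-/-.

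The EV-to-cell difference was not shown to depend on genotype for any member. The interaction test called 0 of 46 members in ATG12-/- and 0 of 46 in ATG7-/-, against 0.268% and 0.284% of all genes, with 5 and 3 members at an unadjusted p under 0.05, where 10.1% and 8.91% of all genes were. The smallest p belonged to HOXA-AS3 (-1.13, limma adjusted p = 0.332) and HOXB13 (-1.02, limma adjusted p = 0.387) in ATG12-/-, and to HOXB6 (-2.99, limma adjusted p = 0.19) and HOXB-AS2 (2.22, limma adjusted p = 0.361) in ATG7-/-, as differences of log2 fold changes from wild type.

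In 7 lists of genes that act with or on the HOX clusters or resemble them, limma called 0 genes between genotypes. In cells 19 of 92 listed genes tested had an unadjusted p under 0.05 in ATG12-/- against wild type, 7 in ATG7-/- against wild type and 9 in ATG12-/- against ATG7-/-, where 15%, 14.4% and 9.91% of all genes did. In EVs the counts were 3, 5 and 7 of 94 in the same order of comparisons, where 7.94%, 7.41% and 6.02% of all genes did. Between EVs and cells 44.1% of all genes passed, 7.66% as higher and 36.4% as lower, and no list's count below is a result about that list. In EVs against cells, 9 HOX cofactors gave 1 higher and 3 lower gene: the HOX partner PKNOX2 was higher (log2 fold change 2.26), and MEIS2 (-0.98) was among the lower ones. Of 29 Polycomb genes, the repressors of silent HOX clusters, 2 were higher and 5 lower, including RNF2 (-2.02), RBBP7 (1.17) and SUZ12 (-1.13). Of 25 Trithorax, cohesin and related genes 3 were higher and 3 lower, including KMT2C (1.85), WDR5 (1.36) and RAD21 (1.80). Of 11 retinoic acid pathway genes 1 passed, ALDH1A2 as higher (1.13). Of 13 ParaHox genes and cluster neighbours SKAP1 was lower (-0.78) and PDX1 higher (0.74). Of 3 cluster noncoding RNAs outside the rule HAGLR, beside HOXD1, was higher, with 73.3, 82.6 and 150 TPM in ATG12-/- EVs, 77.2, 59.2 and 67.0 TPM in ATG7-/- EVs and 46.0, 65.2 and 38.3 TPM in wild-type EVs, against 17.9 to 71.2 TPM in cells (log2 fold change 0.78, limma adjusted p = 0.00569). Of 11 other homeobox genes limma called 0, with 3 at an unadjusted p under 0.05, and SIX2, a kidney progenitor factor and the highest of them, had 7.56 to 17.9 TPM in EVs and 1.82 to 16 TPM in cells, ahead of MSX2. The median log2 fold changes of these lists ran from -0.61 to 0.22, beside -0.61 for all genes.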

How the data were processed

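Per the labels' protocols, EV and cell RNA went into a kit that keeps strand, with 22 PCR cycles, and 50 bases were read from 1 end. The authors deposited 1 table of TPM per transcript for 18 libraries, each summing to 1000000. Salmon 0.14 and DESeq2 appear, without a role, per the submitters' processing notes. Neither build, annotation nor strand setting is given in the sources used here.

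Of 203027 transcripts, 202941 were matched by identifier to GENCODE 29 (GRCh38), which also gave coordinates and transcript sequence, and TPM were summed per gene. Between libraries, TPM were scaled by median-of-ratios factors. A gene entered a fit when 3 or more of its libraries reached 1 TPM. The test was limma 3.58.1 (R 4.3.3) on the log2(TPM + 1) scale (mean-variance trend, two-sided, Benjamini-Hochberg over all genes tested, threshold 0.05). This scale understates the change of low genes. Genotypes were compared within the 9 EV libraries (17076 genes) and the 9 cell libraries (22471 genes), and EVs with cells over all 18 (24647 genes). The fits were tested on simulated data. Printed TPM are as deposited, and errors are SDs over 3 libraries or limma's SE.

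The members, the 7 gene lists and the tests were chosen with earlier results of these data known. Named were members past the threshold, the coding and antisense member of each cluster with the highest mean, the 2 smallest p per comparison, and members above 5 TPM in some group. From each list came up to 3 genes with the smallest p among those past the threshold, or, where none passed, the 2 with the highest mean. A gene of these lists is not reported here. MIR196A1 was named as a neighbour after its values were seen. Alternatives were another pseudocount, filter and scaling, no trend, sample weights, a replicate block, short transcripts left out, and each library left out.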

Additional observations from a re-analysis of the deposited data

Results flagged for a closer look

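HOXB-AS4 in cells differed between the 2 knockouts, each set against the same wild-type cells. ATG12-/- cells averaged 256 ± 58.4 TPM and ATG7-/- cells 4.09 ± 2.59 TPM, beside 216 ± 94.3 TPM in wild-type cells (SD, n = 3 each). The direct test of ATG12-/- over ATG7-/- cells gave a log2 difference of 5.71 (limma adjusted p = 0.00484), with no overlap between 3 and 3 libraries. Each knockout is 1 clone, so genotype and clone cannot be told apart.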

How the results depend on the processing

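The count of members called between genotypes was the same under every alternative: 0 of 45 in each EV comparison, 1 in ATG7-/- against wild-type cells and in ATG12-/- against ATG7-/- cells, and 0 in ATG12-/- against wild-type cells. For EVs against cells over 3 genotypes it ran from 18 to 23 when 1 library was left out, beside 21, and TPM as deposited without scaling gave 5 higher and 13 lower in place of 3 and 18. Within genotypes it depended on single libraries. Beside 11 calls in wild type, leaving out 1 library gave 4 to 8, with 6 without wild-type EV replicate 3 and 5, 6 and 4 without wild-type cell replicates 1, 2 and 3. Beside 5 calls in ATG7-/-, TPM as deposited gave 2, fold changes relative to the median of all genes 3, and leaving out 1 library 2 to 4, with 2 without EV replicate 3 or cell replicates 1 or 2 and 3 without EV replicates 1 or 2. Beside 4 calls in ATG12-/-, both of those alternatives gave 1, and leaving out 1 library 0 to 4, with 0 without cell replicates 1 or 3 and 1 without cell replicate 2. HOXA-AS3 in EVs against cells turned to 0.017 relative to the median of all genes, which that alternative subtracts. The cause of the other changes was not tested. With the replicate number as a block, 22 members passed in EVs against cells, 8 in wild type, 5 in ATG7-/- and 4 in ATG12-/-, and 0 or 1 between genotypes as without the block. Same-numbered libraries did not deviate together (correlations of -0.034 to 0.048), which cannot show whether they came from the same culture. Low EV values limit what could pass there.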
